A study of Saccharomyces cerevisiae with 9 samples.

Results

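The genes described here are 36 genes of Saccharomyces cerevisiae that encode proteasome subunits, factors that assemble or cap the proteasome, and the transcription factor RPN4. They were found among 5449 measured yeast genes by gene symbol. A probe set was taken where the array's annotation gave it a single symbol, and the brightest was kept for each gene. All 36 were found, each on 1 probe set of its own. The study compared 3 recombinant strains with 3 arrays each. D126 carries the D12-desaturase and D6-desaturase genes of the fungus Mucor rouxii, and D12 carries the D12-desaturase gene alone. REF is the reference strain, and neither its construct nor the promoters of the desaturase genes are given in the sources used here. All cultures were glucose-limited chemostats with a dilution rate of 0.1 per h, sampled at a steady state that had lasted 5 residence times or more.

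The proteasome is the protease complex that degrades proteins tagged with ubiquitin in the cytosol and nucleus. Its core particle is a barrel of outer alpha rings, which gate the entrance, and inner beta rings, which hold the proteolytic sites. A regulatory particle made of a base and a lid recognises the tagged protein, removes the ubiquitin, unfolds the chain and feeds it into the core. In yeast the transcription factor Rpn4 activates most proteasome genes and is itself a short-lived proteasome substrate, so that its level responds to proteasome capacity.

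Expression was given as log2 values made with RMA, which corrects each array for background, brings the arrays to a common distribution and combines the probes of a set into a single value. Yeast genes had a median of 10.96, against 3.90 for named probe sets of no gene in the yeast gene table. The 36 proteasome genes had means of 11.53 (ECM29) to 13.85 (PRE6), all above the background limit of 5.64, and since every probe set binds with its own strength these levels were not ranked. Each value is an average over a culture, so fewer cells holding a transcript and less of it per cell cannot be told apart. Whether the 3 arrays of a strain came from separate cultures is not stated in the labels. The p-values therefore cover the spread among these arrays alone, and that spread may be technical. D12 replicate 3 stood apart from the other arrays. Its values deviated from the strain mean with an SD of 0.104, against 0.045 to 0.079 on the other 8 arrays, and the calls of D126 or D12 that rest on it are given with and without it.

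In D126, 4 of the 36 proteasome genes fell relative to REF and 0 rose. BLM10, a proteasome activator, fell by 16.5%, and RPN4 fell by 12.5%. RPT3, an ATPase of the base, fell by 9.47%, and PRE3, a catalytic subunit of the beta ring, fell by 8.02%. The other 32 genes were not called by limma at an adjusted p under 0.05, with log2 differences no larger than 0.09 in size. The share of proteasome genes that fell, 11.1%, compares with 12.9% of all 5449 genes, and the share that rose with 8.59% of all genes. Counting both directions, 21.5% of all genes were called. Before adjustment, 6 proteasome genes and 1952 of all genes had a p under 0.05.

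Across the 36 genes, 21 log2 differences between D126 and REF lay below 0 and 15 above 0, where 51.4% of all genes lay below 0. The median of the 36 was -0.020, beside -0.0034 over all genes. All 3 D126 arrays lay below all 3 REF arrays for 9 proteasome genes, where 25.7% of all genes did so, and above them for 3 genes, UMP1, RPN9 and PRE4, where 22.2% of all genes did so. The 95% intervals of the 32 uncalled genes, which are not adjusted for the number of genes, reached down to -0.18 (PRE2) and up to 0.18 (UMP1). Changes beyond -11.5% or 13.1% thus lie outside every one of these intervals. Whether smaller changes were resolved with 3 arrays a strain differed by gene. RPT3 and PRE3 were called at -9.47% and -8.02%, and 2 of the 32 intervals did not include 0.

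**Figure D1:**
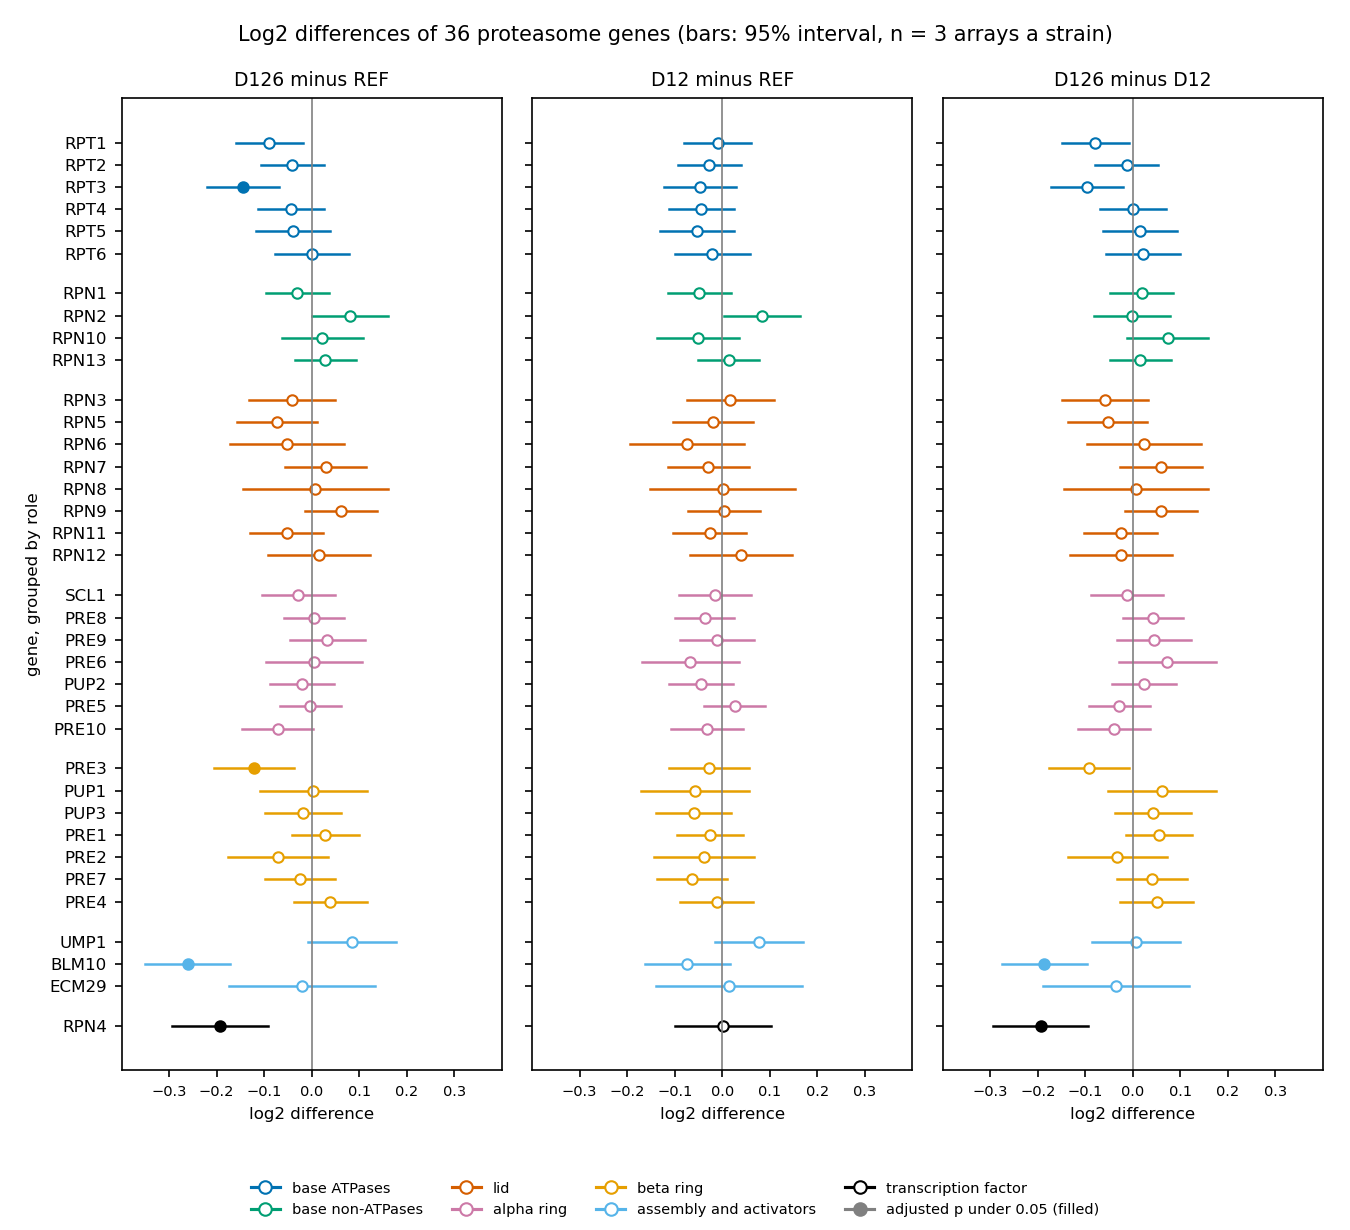
Log2 differences of the 36 proteasome genes in each of the 3 comparisons, with D126 minus REF on the left, D12 minus REF in the middle and D126 minus D12 on the right. Points are limma estimates, bars are 95% intervals with 3 arrays a strain, colours mark the role of the gene and filled points have an adjusted p under 0.05. Filled points are BLM10, RPN4, RPT3 and PRE3 for D126 minus REF, none for D12 minus REF, and BLM10 and RPN4 for D126 minus D12.

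The plot of log2 differences shows the genes by role, and the account below follows the same roles, beginning with the regulator. RPN4 had log2 values of 12.64, 12.67 and 12.61 in D126, 12.74, 12.85 and 12.91 in D12, and 12.81, 12.85 and 12.83 in REF. The D126 arrays lay below every D12 and every REF array, while the D12 values were the most scattered and spanned those of REF. RPN4 fell in D126 with a log2 difference from REF of -0.19 (SE 0.045, limma adjusted p = 0.0157). Relative to D12 it fell by 12.6%, a log2 difference of -0.19 (adjusted p = 0.0150). Without D12 replicate 3, the highest of the RPN4 values, that difference was -0.16 with an adjusted p of 0.0296. Between D12 and REF the log2 difference of RPN4 was 0.00, with a 95% interval of -0.10 to 0.10.

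BLM10 encodes an activator that caps the alpha ring of the core particle and takes part in its maturation. Its log2 values were 12.52, 12.51 and 12.46 in D126, 12.67, 12.73 and 12.65 in D12, and 12.71, 12.75 and 12.82 in REF. All D126 arrays lay below all other arrays, and the D12 and REF values overlapped. BLM10 fell in D126, with a log2 difference from REF of -0.26 (SE 0.040, limma adjusted p = 0.0022) and a 95% interval of -0.35 to -0.17. Relative to D12 it fell by 12.1% (log2 difference -0.19, adjusted p = 0.0109), and without D12 replicate 3 the log2 difference was -0.20 (adjusted p = 0.0123). The log2 difference between D12 and REF was -0.07 and was not called (adjusted p = 0.832).

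The other factors that bind or build the particle were not called. UMP1 encodes the chaperone that is enclosed in the maturing core and becomes its first substrate. It ran from 12.48 to 12.55 in D126, from 12.44 to 12.57 in D12 and from 12.42 to 12.47 in REF. Its log2 difference from REF was 0.09 in D126 (adjusted p = 0.171) and 0.08 in D12 (adjusted p = 0.832), the D126 arrays all lying above those of REF and the D12 arrays overlapping them. ECM29, which binds core and regulatory particle together, ran from 11.46 to 11.59 in D126, from 11.46 to 11.71 in D12 and from 11.48 to 11.56 in REF. The groups overlapped fully, and ECM29 had log2 differences from REF of -0.02 in D126 and 0.01 in D12.

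The base ATPases, RPT1 to RPT6, form the ring that unfolds substrates and opens the gate of the core. Of these 6 genes, 1 fell in D126 relative to REF, beside 12.9% of all genes. The log2 difference lay below 0 for 5 of the 6, with a median of -0.042, and for 51.4% of all genes. RPT3 had values of 12.90, 12.92 and 12.92 in D126, 12.97, 13.05 and 13.01 in D12, and 13.05, 13.10 and 13.03 in REF. The D126 arrays were the lowest 3 of the 9 and lay close together, and the D12 and REF values overlapped. RPT3 fell with a log2 difference of -0.14 from REF (SE 0.034, limma adjusted p = 0.0164, 95% interval -0.22 to -0.07). Against D12 the log2 difference was -0.10 and was not called (adjusted p = 0.0719).

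RPT1, a neighbour of RPT2 in that ring, ran from 13.52 to 13.57 in D126, from 13.61 to 13.65 in D12 and from 13.61 to 13.66 in REF. The D126 arrays lay below all others here too, but the log2 difference of -0.09 from REF was not called (adjusted p = 0.0719). RPT2, whose tail takes part in opening the core, had a log2 difference of -0.04 between D126 and REF, with no overlap between these arrays. RPT4 and RPT5 also stood at -0.04 and overlapped with REF, and RPT6 at 0.00.

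The base also holds scaffold proteins and ubiquitin receptors. Of these 4 genes, 0 were called in D126 relative to REF, beside 21.5% of all genes. RPN2, a large scaffold that anchors the receptor RPN13, ran from 12.43 to 12.48 in D126, from 12.43 to 12.47 in D12 and from 12.33 to 12.43 in REF. The highest REF array reached the lowest D126 and D12 arrays. The log2 difference from REF was 0.08 in D126 (adjusted p = 0.139) and 0.08 in D12 (adjusted p = 0.817). RPN1, the scaffold on which ubiquitin shuttle proteins dock, differed by -0.03 in D126 and by -0.05 in D12, and its arrays in either strain lay below all REF arrays. The ubiquitin receptors RPN10 and RPN13 differed from REF by 0.02 and 0.03 in D126.

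Of the 8 lid genes, 0 were called in any comparison. Over all genes, 21.5% were called for D126 minus REF, 22.0% for D126 minus D12 and 0% for D12 minus REF. The deubiquitinase RPN11, which cuts the ubiquitin chain from the substrate, differed by -0.05 between D126 and REF, and its partner subunit RPN8 by 0.01. The remaining lid genes encode the scaffold around this pair. RPN5 had the lowest log2 difference among them, -0.07 (adjusted p = 0.196), with all D126 arrays below those of REF, which also held for RPN3 (-0.04). RPN9 had the highest, 0.06 (adjusted p = 0.221), with all D126 arrays above those of REF. RPN6, which braces the lid against the core, stood at -0.05, RPN7 at 0.03 and RPN12, the last subunit to join the lid, at 0.02. RPN8 had the largest SD of any proteasome gene in D12 (0.151), with 13.06 and 13.10 on replicates 1 and 2 and 13.34 on replicate 3.

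The alpha ring genes did not pass the test in any comparison (0 of 7), beside the shares of all genes given for the lid. In D126 relative to REF their log2 differences ran from -0.07 (PRE10, adjusted p = 0.159) to 0.03 (PRE9), with a median of -0.0025. PRE9 encodes the only alpha subunit that yeast can live without. SCL1 differed by -0.03, PUP2 by -0.02, PRE5 by -0.0025, PRE8 by 0.00 and PRE6 by 0.01. For each of these 7 genes the D126 and REF arrays overlapped.

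The beta ring holds the 3 catalytic subunits. PRE3, which carries the caspase-like site, had log2 values of 13.56, 13.60 and 13.59 in D126, 13.68, 13.73 and 13.61 in D12, and 13.67, 13.73 and 13.71 in REF. All D126 arrays lay below the others, the lowest D12 array being close to them. PRE3 fell in D126, with a log2 difference from REF of -0.12 (SE 0.037, limma adjusted p = 0.0479, 95% interval -0.20 to -0.04). That p lies next to the threshold, and PRE3 was called in 9 of 19 alternative settings, the log2 difference running from -0.14 to -0.11. Against D12 the log2 difference of PRE3 was -0.09 and was not called (adjusted p = 0.110). Without D12 replicate 3 it was -0.12 and was called (adjusted p = 0.0330).

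The other catalytic subunits were not called in D126. PUP1, which carries the trypsin-like site, had a log2 difference of 0.00 from REF, and PRE2, which carries the chymotrypsin-like site, one of -0.07 (adjusted p = 0.310). Their D126 arrays overlapped with those of REF. Among the beta subunits without a proteolytic site, PUP3 differed by -0.02, PRE7 by -0.02, PRE1 by 0.03 and PRE4 by 0.04. The PRE4 values ran from 13.60 to 13.62 in D126, from 13.51 to 13.59 in D12 and from 13.53 to 13.59 in REF, so the D126 arrays lay above the others, though PRE4 was not called (adjusted p = 0.447).

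**Figure D2:**
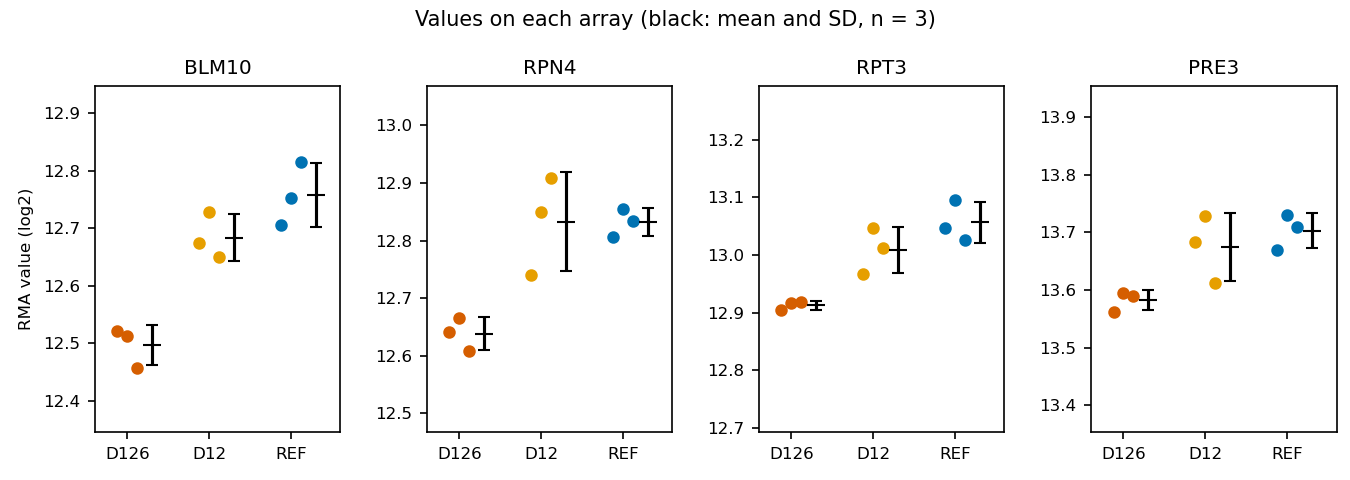
Log2 values of BLM10, RPN4, RPT3 and PRE3 on each array, D126 left of D12 and REF, with black bars for the mean and SD of 3 arrays. Every vertical axis covers the same span of log2 units and does not start at 0. In all 4 panels the D126 arrays lie below every other array.

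The array values of the 4 called genes are plotted side by side. The D126 points form the lowest cluster in each panel, and the D12 and REF points overlap. These 4 calls rest on small differences and depend on the settings in part. BLM10 was called in all 19 alternatives for D126 minus REF, RPN4 and RPT3 in 16 of 19. Testing every probe set that is no control, or leaving out REF replicate 2 or D126 replicate 3, each left BLM10 alone as called. In these fits the shares of all features called were 5.88%, 11.8% and 12.8%. With arrays weighted by their quality, 12 proteasome genes were called, 9 lower and 3 higher in D126, where 48% of all genes were called.

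Expression of the D12-desaturase alone gave no call among the proteasome genes (0 of 36 in D12 relative to REF by limma). The share of all genes called was 0% as well. RPN2 was the only proteasome gene with an unadjusted p under 0.05, against 326 of all genes. The log2 differences ran from -0.07 to 0.08. They lay below 0 for 26 of the 36 genes, with a median of -0.027. Of all 5449 genes, 2195 lay below 0, and the median over all genes was 0.013. Over 1552 other genes as bright, with means between 11.53 and 13.85, the median was 0.0058. The median deviation of all genes from the REF mean was 0.0053, -0.0053 and 0.038 on D12 replicates 1 to 3. The D12 arrays lay entirely below REF for 5 genes (RPT4, RPN1, PRE8, PUP3 and PRE7), where 3.96% of all genes did so, and entirely above REF for 0 genes, where 6.20% of all genes did so.

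By role, the 7 beta ring genes and the 6 base ATPases all had D12 values below REF on average, with medians of -0.039 and -0.036. The alpha ring had 6 of 7 genes below 0 (median -0.031), the lid 4 of 8 (-0.0092) and the non-ATPase base genes 2 of 4 (-0.017). The beta ring median moved with D12 replicate 3, where it lay 0.09 below the REF mean on the log2 scale, against 0.02 below on replicates 1 and 2. On that same array the lid median lay 0.04 above the REF mean. Without D12 replicate 3, 29 of the 36 genes lay below 0 and the median was -0.030. In that fit limma called 0 of the 36, beside 0.0184% of all genes. The 95% intervals of all 36 genes together spanned -12.6% (RPN6) to 12.5% (UMP1), so larger changes lie outside every one of them.

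**Figure D3:**
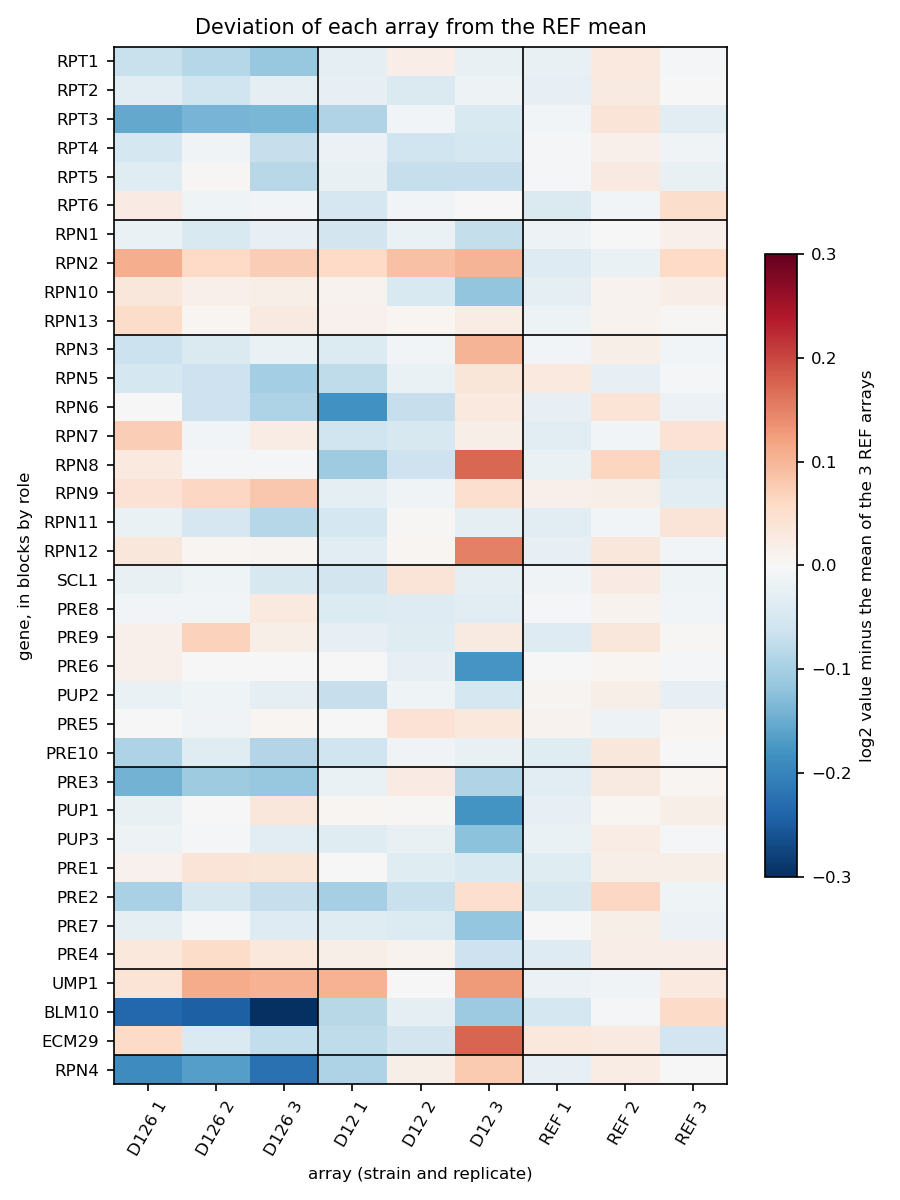
Log2 value of each proteasome gene on each array minus the mean of the 3 REF arrays, with D126 arrays on the left, D12 arrays in the middle and REF arrays on the right, and with genes in blocks by role. Blue cells are below the REF mean and red cells above it. BLM10, RPN4, RPT3 and PRE3 are blue on all 3 D126 arrays, and D12 replicate 3 lies farther from the REF mean than the other D12 arrays for RPN8, RPN12, PUP1, PRE6 and ECM29.

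The map of deviations by array holds all 36 genes. The median deviation of the 36 genes from the REF mean was -0.017, -0.011 and -0.026 on D126 replicates 1 to 3, -0.036, -0.016 and -0.022 on D12 replicates 1 to 3, and -0.021, 0.017 and -0.0022 on REF replicates 1 to 3. Of the 6 medians of D126 and D12 arrays, 3 lay below the lowest REF median, and all 6 lay below 0. The number of genes below the REF mean was 22, 25 and 23 on the D126 arrays, 28, 24 and 21 on the D12 arrays, and 30, 9 and 19 on the REF arrays. The REF arrays themselves ranged most widely in this count. The typical SD within a strain was small, with a median over the 36 genes of 0.022 in D126, 0.042 in D12 and 0.027 in REF.

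The direct comparison of D126 with D12 asked what the second desaturase added. It shares the D126 arrays with the comparison of D126 and REF, so their calls are not independent. BLM10 and RPN4 fell in D126 relative to D12 (2 of 36, or 5.56%) and 0 proteasome genes rose. Over all genes, 14.7% were called lower, 7.32% higher and 22.0% in either direction. The log2 differences of the 36 genes had a median of 0.0068, beside -0.018 over all genes and -0.0011 over the other genes as bright. Of the 36, 16 lay below 0 and 20 above, where 56.3% of all genes lay below 0. All D126 arrays lay below all D12 arrays for RPT1, RPT3, PRE3, BLM10 and RPN4, where 23.8% of all genes did so. They lay above them for RPN10, PRE8, PRE1 and PRE4, where 14.7% of all genes did so. With the replicate number as a block and the D126 and D12 arrays alone, limma called 0 proteasome genes, beside 7.3% of all genes. BLM10 then had a limma adjusted p of 0.0724. With array weights 6 proteasome genes were called, beside 37.8% of all genes.

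A moderated F-test for any difference among the 3 strains called 3 of the 36 genes, BLM10 (adjusted p = 0.0047), RPN4 (0.0195) and RPT3 (0.0357). Over all genes it called 20.1%. PRE3 was not called by this test (adjusted p = 0.0903). After quantile normalization the F-test called 1 of the 36 genes, beside 21.4% of all genes. Without D126 replicate 1, 2 or 3 it also called 1 of the 36, beside 12.9%, 12.4% and 9.87% of all genes.

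The size of the differences was also set beside that of other genes as bright on the array. There were 1552 such genes with a mean between 11.53 and 13.85. In D126 relative to REF, the median absolute log2 difference was 0.036 for the proteasome genes, 0.083 for the genes as bright and 0.080 for all genes. In D126 relative to D12 it was 0.040 for the proteasome genes, 0.079 for the genes as bright and 0.081 for all genes. In D12 relative to REF the values lay closer together, at 0.030, 0.035 and 0.039. The SE of a difference was also lower for the proteasome genes, with a median of 0.035, against 0.045 for the genes as bright. Of the proteasome genes, 11.1% fell and 0% rose in D126 relative to REF, against 15.1% and 10.8% of the genes as bright.

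**Figure D4:**
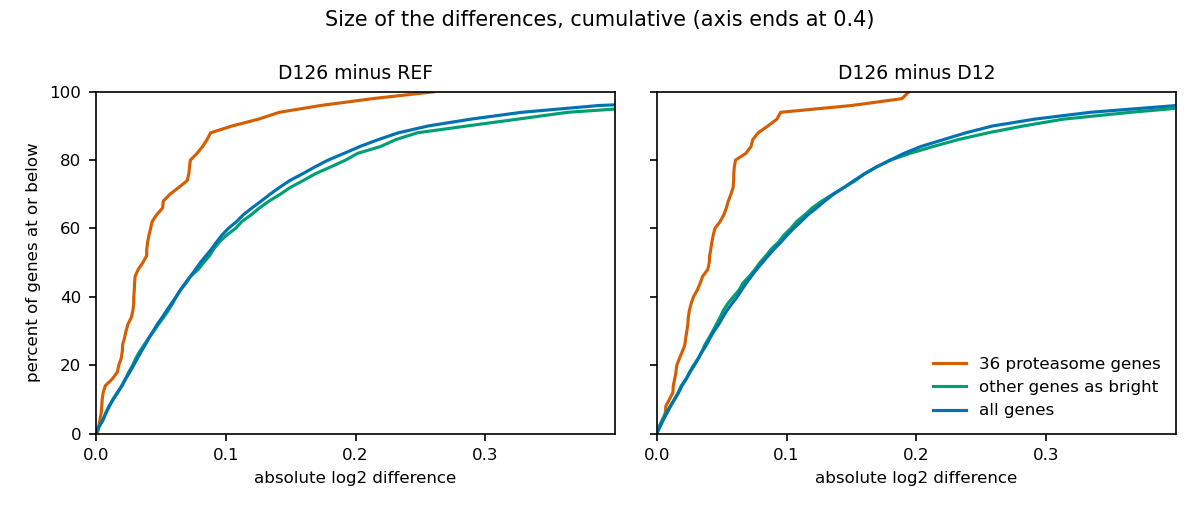
Cumulative share of genes (percent, vertical axis) at or below a given absolute log2 difference (horizontal axis, ending at 0.4), for D126 minus REF on the left and D126 minus D12 on the right. Lines stand for the 36 proteasome genes, 1552 other genes with means in the same range, and all 5449 genes. The proteasome line rises earliest in both panels, with medians of 0.036 and 0.040.

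The cumulative plot shows the proteasome genes to the left of the other lines over most of its range, and the genes as bright close to all genes. These values describe the lists as they stand, and no test was made of the list as a whole.

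Genes that serve the proteasome from outside the 36 were counted in the same way. Of 16 proteasome chaperones and bound factors, 5 fell in D126 relative to REF and 0 rose, beside 12.9% and 8.59% of all genes, with a median log2 difference of -0.051. NAS2, a chaperone of base assembly, had values of 10.92, 10.87 and 10.83 in D126, 10.99, 11.02 and 11.00 in D12, and 11.07, 11.06 and 11.04 in REF. It fell in D126 relative to REF by 0.18 on the log2 scale (adjusted p = 0.0048). TMA17, a base chaperone made under stress, fell by 0.21 (adjusted p = 0.0208), and SPG5, a proteasome regulator of the stationary phase, fell by 0.13 (adjusted p = 0.0281). With the replicate block on all 9 arrays 2 of the 16 fell, and TMA17 (adjusted p = 0.0533) and SPG5 (adjusted p = 0.0582) were no longer called. That fit called 16.9% of all genes in either direction. Relative to D12, 5 of the 16 fell, again with TMA17, NAS2 and SPG5, and 1 rose, the base chaperone NAS6 (log2 difference 0.09, adjusted p = 0.0471), beside 14.7% and 7.32% of all genes. Without D12 replicate 3, 3 fell and 0 rose, and the adjusted p was 0.0610 for TMA17, 0.0756 for SPG5 and 0.0737 for NAS6. Without D12 replicate 2, 1 of the 16 fell, and without D126 replicate 3, 0 fell. The shares of all genes called in either direction were 20.6% without D12 replicate 3, 15% without D12 replicate 2 and 12.5% without D126 replicate 3. The other genes that fell in either comparison were RPN14, also a base chaperone, and FUB1, and these and NAS6 were named after their values were seen.

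Of 6 regulators of RPN4, 3 fell in D126 relative to REF and 0 rose, beside 12.9% and 8.59% of all genes (median -0.11). MUB1 and UBR2 belong to the ubiquitin ligase that marks Rpn4 for degradation. MUB1 stood at 10.58, 10.81 and 10.76 in D126, 10.89, 10.95 and 10.98 in D12, and 10.97, 10.99 and 10.98 in REF. All D126 arrays lay below the others. MUB1 fell by 0.26 on the log2 scale in D126 relative to REF (adjusted p = 0.0106) and UBR2 fell by 0.14 (adjusted p = 0.0280). HSF1, the heat shock factor, which activates RPN4 transcription, fell by 0.11 (adjusted p = 0.0250). With the replicate block on all 9 arrays only MUB1 was called, with adjusted p-values of 0.0543 for UBR2 and 0.0637 for HSF1. The block on the D126 and REF arrays alone kept all 3. These fits called 16.9% and 29.4% of all genes. Relative to D12, 2 of the 6 fell, MUB1 and UBR2, beside 14.7% of all genes. Neither was called without D12 replicate 3 (adjusted p = 0.0503 for MUB1 and 0.0767 for UBR2) or without D12 replicate 2 (0.0596 for MUB1 and 0.108 for UBR2). Of all genes, 20.6% and 15% were called in these fits.

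The wider ubiquitin system gave counts in both directions. Of 30 genes for ubiquitin, its conjugating enzymes, ligases and deubiquitinases, 3 fell and 1 rose in D126 relative to REF, beside 12.9% and 8.59% of all genes (median -0.028). HUL4, a HECT-type ubiquitin ligase, fell by 0.26 on the log2 scale (adjusted p = 0.0039), and UFD4, a ligase of ubiquitin fusion degradation, fell by 0.19 (adjusted p = 0.0078). The third gene to fall was the peroxisomal conjugating enzyme PEX4, named after its values were seen. UBC7, a conjugating enzyme of degradation at the endoplasmic reticulum, rose with a log2 difference of 0.15 (adjusted p = 0.0085). Relative to D12, 5 of the 30 fell and 1 rose, beside 14.7% and 7.32% of all genes, the largest changes being those of HUL4 (-0.27), UBC11 (-0.27, adjusted p = 0.0465) and UBP14 (-0.17, adjusted p = 0.0470). HUL4 was called in all 19 alternatives, UBC11 in 6 and UBP14 in 5. Without D12 replicate 3, 3 of the 30 fell, beside 20.6% of all genes called in either direction. The adjusted p was then 0.113 for UBC11 and 0.0777 for UBP14. Neither gene was called in D126 relative to REF (adjusted p = 0.397 for UBC11 and 0.239 for UBP14).

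Of 10 genes of the Cdc48 complex and the ubiquitin shuttles, which extract tagged proteins and carry them to the proteasome, 3 fell in D126 relative to REF and 0 rose, beside 12.9% and 8.59% of all genes (median -0.045). These were UFD1 (-0.16, adjusted p = 0.0212) and NPL4 (-0.14, adjusted p = 0.0243), the paired cofactors of Cdc48, and the deubiquitinase OTU1 (-0.14, adjusted p = 0.0432). NPL4 was called in 13 of 19 alternatives and OTU1 in 10. Relative to D12, 0 of the 10 were called by limma, beside 22.0% of all genes. An unadjusted p under 0.05 was found for 1 of the 10 and for 1959 of all 5449 genes. In that comparison UFD1 differed by -0.07 and NPL4 by -0.10. The 7 vacuolar proteases degrade proteins outside the proteasome pathway. Of these, 1 fell in D126 relative to REF and 0 rose, beside 12.9% and 8.59% of all genes. It was PRC1 (carboxypeptidase Y, adjusted p = 0.0489), called in 7 of 19 alternatives. All 7 log2 differences lay below 0 (median -0.094), as did 51.4% of those of all genes. Relative to D12, PRC1 alone fell, beside 14.7% of all genes, and was called in 5 of 19 alternatives. All 7 again lay below 0 (median -0.14), beside 56.3% of all genes. In D12 relative to REF, 0 genes of these 5 lists were called by limma, with 3 at an unadjusted p under 0.05.

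**Figure D5:**
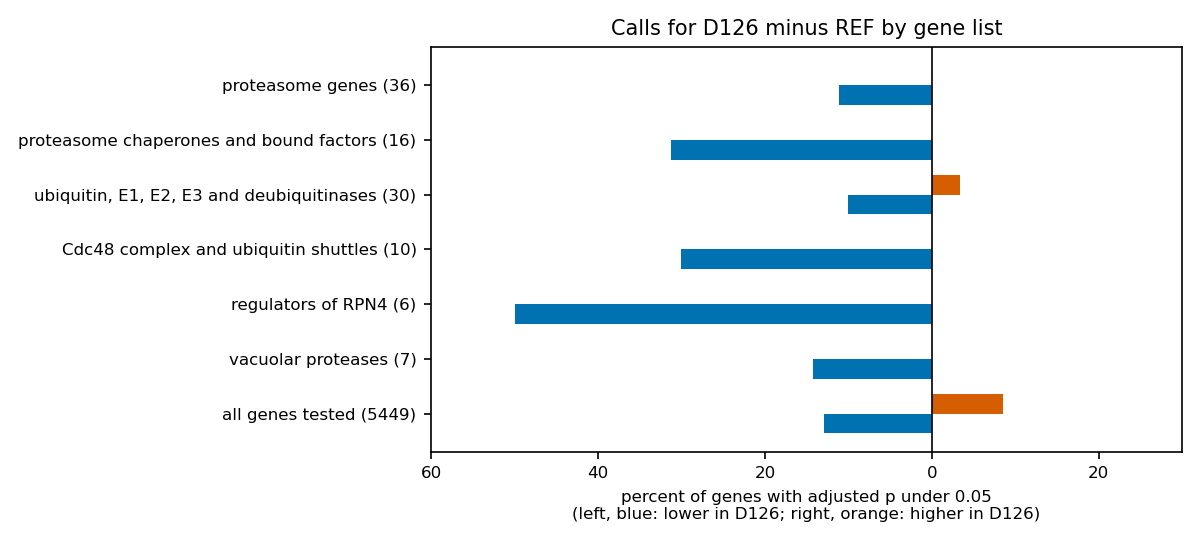
Percent of genes called in D126 relative to REF (adjusted p under 0.05) in each list, with the number of genes in brackets. Blue bars to the left are genes lower in D126 and orange bars to the right are genes higher in D126. The bar of the 36 proteasome genes (11.1% lower) is close to that of all genes (12.9% lower), and the smaller lists have between 1 and 5 lower genes each.

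The counts of these small lists moved with the settings, as the plot of calls by list shows for a single setting. Over the alternatives, the number of genes that fell in D126 relative to REF ran from 1 to 7 for the chaperones, from 2 to 10 for the ubiquitin system, from 0 to 4 for the Cdc48 list, from 1 to 4 for the regulators of RPN4 and from 0 to 5 for the vacuolar proteases. In D126 relative to D12 it ran from 0 to 5 for the chaperones, from 1 to 10 for the ubiquitin system, from 0 to 1 for the Cdc48 list, from 0 to 3 for the regulators of RPN4 and from 0 to 4 for the vacuolar proteases. The share of all genes called in either direction moved too. For D126 minus REF it ran from 5.88% of all non-control probe sets, where those were tested, to 48% with array weights. For D126 minus D12 it ran from 6.11% to 37.8% in the same settings. Without REF replicate 2, or without D126 replicate 3, the Cdc48 list had 0 genes that fell in D126 relative to REF and the chaperones had 1. In these fits 11.8% and 12.8% of all genes were called.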

How the data were processed

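The values are the log2 expression values the authors deposited for 9 Affymetrix arrays, which RMA in affy produced, per the submitters' processing notes. Neither tool's version is given in the sources used here. The probe signals were not analysed here. Of 10928 probe sets, 7244 carry 1 gene symbol, 1 several and 3683 none. Matching to the R64 RefSeq gene table gave 5498 probe sets of 5449 genes, of which 47 had more than 1. The 95th percentile of 1746 named probe sets outside that table was the background limit. limma 3.58.1 in R 4.3.3 fitted strain to all 9 arrays (lmFit, eBayes, 6 residual and 3.10 prior degrees of freedom), and Benjamini-Hochberg adjustment ran over the 5449 genes. The fit was tested on simulated data. The number of arrays limits the precision, since the median SE of a log2 difference was 0.048.

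Any of the 36 genes may be named, with every array's value where it was called. Of each other list, up to 3 called genes with the largest change are named, or 2 where none was called, and genes named beyond this rule are said to be so. The members and lists were chosen with earlier results of these data known. The listed protease gene ATG42 had no match.

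Replicate numbers come from the titles, which do not say what they mark. Same-numbered D126 and REF arrays deviated together weakly (correlations of 0.22, 0.18 and 0.13). Those of D12 and REF (-0.34 to -0.08) and of D126 and D12 (-0.28 to -0.02) did not. Arrays of different number reached 0.30, so these values do not settle whether any arrays are paired. The main fit has no block, and fits with the replicate number as a block are given as alternatives.

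Alternatives were other normalizations, probe set rules and filters, replicate blocks, array weights, an intensity trend in eBayes, fits of 2 strains alone, and leaving out each array.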

Additional observations from a re-analysis of the deposited data

How the results depend on the processing

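For D12 minus REF, 0 proteasome genes were called by limma under all 19 alternatives, and their median stayed below 0, as it did for D126 minus REF. The counts of calls moved as follows, where the cause was not tested unless stated. Testing all non-control probe sets, which adjusts over more features, called 1 gene for D126 minus REF, 1 for D126 minus D12 and 1 by the F-test. The shares of these features called were 5.88%, 6.11% and 5.44%. Array weights called 12, 6 and 9 proteasome genes, beside 48%, 37.8% and 47.1% of all genes. Quantile normalization left 1 gene by the F-test, beside 21.4% of all genes, and moved the median for D126 minus D12 to 0.032. Leaving out each array in turn, with fewer arrays in each fit, gave 1 to 4 genes for D126 minus REF. The counts were 1 to 3 for D126 minus D12 and 1 to 4 by the F-test. In the same order, the shares of all genes called ran from 11.8% to 28.2%, from 12.5% to 24.4% and from 9.87% to 23.7%. The median for D126 minus D12 ran from -0.0022 (without D12 replicate 1) to 0.012 and was -0.00013 without D126 replicate 1, so its sign is not settled.

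With the replicate block, D126 minus REF kept the same 4 calls in the 2 strains alone and 3 of them with all 9 arrays, where PRE3 was lost. D126 minus D12 kept 2 calls with all 9 arrays and 0 in the 2 strains alone, though its same-numbered arrays did not deviate together. In the 2 strains alone, 29.4% of all genes were called for D126 minus REF and 7.3% for D126 minus D12. With all 9 arrays these shares were 16.9% and 17.7%. The block changed no proteasome call of D12 minus REF, and the F-test called 2 genes with it, beside 15% of all genes. On all 9 arrays the block also took calls from the other lists for D126 minus REF, leaving 2 of 5 chaperones, 1 of 3 Cdc48 genes, 1 of 3 regulators of RPN4 and 0 of 1 vacuolar protease, with the 4 of the ubiquitin system kept. For single genes, each gene in each comparison and each alternative was counted as 1 result. Of these results 230 lost a call, 20 gained one and 2874 stayed the same. Among called ones 0 changed sign, and 11 uncalled ones changed sign by over their SE.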
